A study of Mus musculus with 6 samples.

Results

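The 9 genes described here encode macrophage migration inhibitory factor (Mif), its homologue D-dopachrome tautomerase (Ddt) and 7 other secreted factors that tumour cells can release, Vegfa, Vegfb, Csf1, Gdf15, Spp1, Tgfb1 and Il18. They were chosen by name, with earlier results of these data known, and were found by Ensembl gene identifier as 9 of the 39179 genes in the count files. The 6 annotated processed pseudogenes of Mif in the files, which are intronless copies of its messenger RNA inserted elsewhere in the genome, are given beside it. Poly(A)-selected RNA was sequenced from mouse melanoma cells of the line B16-F10 grown in culture, with the genotype Sirpa-wild type in 3 libraries (Sirpa-WT) and Sirpa-knockout in 3 libraries (Sirpa-KO). No treatment, time or further allele is labelled for either group. The product of Sirpa, SIRPα, is a cell-surface receptor that binds CD47, and the question is how the lines differ in their resting transcriptomes. The labels describe neither the edit nor whether each line is 1 clone, and one label field gives Pmel as the cell line and tumor as the tissue. Nor do they say that replicates came from separate cultures; p-values therefore reflect the spread among these libraries, which may be technical.

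MIF is a small cytokine with a tautomerase fold that is stored in the cytoplasm and released without a signal peptide. It signals through CD74, with CD44 as a co-receptor, and through the chemokine receptors CXCR2 and CXCR4, and DDT also binds CD74. Melanoma cells are a known source of MIF. Of the other factors, VEGF-A and VEGF-B act on blood vessels, CSF-1 and osteopontin (Spp1) act on macrophages among other cells, GDF15 is a stress-induced hormone, TGF-β1 is a suppressive cytokine, and IL-18 is a cytokine that is cut to its active form by caspase-1.

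Mif resembles its copies so closely that its counts cannot be read alone, which is why stretches of it are shown here. Mif (ENSMUSG00000033307) lies on chromosome 10 of GRCm38, from 75859353 to 75860250 on the minus strand, in 3 exons, and its GENCODE transcript of 544 bases holds 348 coding bases. The exon junctions fall after coding bases 108 and 281, counted from the first base of the start codon. A processed copy has no intron, so a window of 60 bases that crosses a junction of Mif runs unbroken in it. The windows are from GENCODE transcripts of GRCm38, 5′ to 3′, and capitals mark bases that differ from Mif. Around the first junction, coding bases 79 to 138, the 3 sequences read:

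Mif junction 1: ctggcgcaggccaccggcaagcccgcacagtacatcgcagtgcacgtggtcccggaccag

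Gm10169 junction 1: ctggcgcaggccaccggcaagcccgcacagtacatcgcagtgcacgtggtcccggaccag

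Mif-ps3 junction 1: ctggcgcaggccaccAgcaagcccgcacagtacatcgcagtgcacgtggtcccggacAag

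Around the second junction, coding bases 252 to 311, the 4 sequences read:

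Mif junction 2: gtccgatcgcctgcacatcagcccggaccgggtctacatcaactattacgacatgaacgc

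Gm10169 junction 2: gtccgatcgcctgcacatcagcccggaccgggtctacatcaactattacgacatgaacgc

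Gm16379 junction 2: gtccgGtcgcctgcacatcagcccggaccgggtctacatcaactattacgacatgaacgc

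Mif-ps3 junction 2: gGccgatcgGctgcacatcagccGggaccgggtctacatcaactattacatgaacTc

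Gm10169 is identical to Mif in both windows. Mif-ps3 has G94A and C136A in the first window and T253G, C261G, C275G and G310T in the second, where it also lacks 3 bases. Over the whole coding sequence, Gm10169 (chromosome 7, 29965100 to 29965640, minus strand) differs by 3 substitutions, G35A, G63T and G319A. Gm16379 (chromosome 9, 14845365 to 14845712, minus strand) differs by 6, of which A257G lies in the second window. Mif-ps3 (chromosome 3, 92024567 to 92024911, plus strand) differs by 12 substitutions and 3 missing bases. Gm5228 differs by 24 substitutions, Gm6990 by 40 and Gm11908 by 54, beside gaps in Gm5228 and Gm11908.

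**Figure D1:**
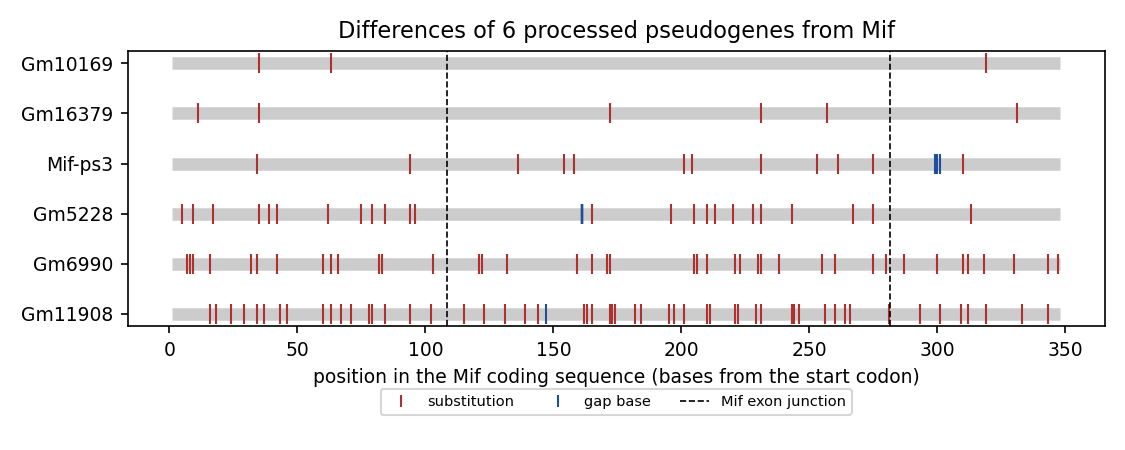
Differences of 6 processed pseudogenes from the coding sequence of Mif. The horizontal axis is the position in bases from the start codon, each grey bar is 1 pseudogene, red ticks are substitutions, blue ticks are gap bases and dashed lines are the junctions of Mif after bases 108 and 281. Gm10169 has 3 ticks, while Mif-ps3 has 12 red ticks and a gap of 3 bases.

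Read-sized stretches were compared next. Of the 299 words of 50 bases in the Mif coding sequence, 206 (68.9%) occur unchanged in Gm10169, 120 in Gm16379, 19 in Gm5228 and 10 (3.34%) in Mif-ps3. Of the 495 such words in the whole transcript, 378 (76.4%) occur in another annotated transcript, and these include each of the 98 words that cross a junction. The remaining 117 words, found in Mif alone, lie inside a single exon. Exact words of 50 bases thus separate Mif from Mif-ps3 over most of the coding sequence, but from Gm10169 over less of it. Whether the counted fragments were assigned to the right row was not tested. The deposited counting command carried no option to keep fragments that align to several places.

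Total counts were 338824 to 411695 in 5 libraries and 29877270 in Sirpa-KO replicate 1. That library is referred to as deep; the other 5 are called shallow, and Sirpa-KO replicates 2 and 3 the shallow Sirpa-KO pair. One count in a shallow library equals 2.43 to 2.95 CPM, which is counts scaled to the same total in each library. Processed pseudogenes took 26.5% to 29.7% of counts in the shallow libraries and 0.177% in the deep one, so results for Mif and its tested copies are given with and without it, and for the other genes its value is given beside the shallow ones. Sirpa-WT had 12, 7 and 3 counts of Sirpa itself, and the libraries labelled Sirpa-KO had 1584, 6 and 6. Its groups overlapped. In edgeR's quasi-likelihood test without a count filter, Sirpa stood at a log2 fold change of 0.17 ± 0.62 (SE, adjusted p = 0.938) with all 6 libraries, and at -0.38 ± 0.53 (adjusted p = 0.806) without the deep one. The counts of Sirpa thus do not check the labels, and directions refer to libraries as labelled. Summed CPM of 7 melanocyte markers was 15960 to 19092 in Sirpa-WT, 12626 to 12990 for the shallow Sirpa-KO pair and 15519 in the deep library. Most of that difference was Dct (7901 to 9935 CPM against 4575 and 4863), while Tyr, Mlana and Sox10 overlapped between Sirpa-WT and the pair.

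Mif had the highest level of the 9 genes in each library, in CPM and in CPM per kilobase of gene length. Sirpa-WT replicates 1 to 3 had 44, 62 and 58 counts of it and Sirpa-KO replicates 1 to 3 had 11089, 38 and 40, or 107, 180 and 168 CPM against 371, 112 and 109 CPM. The deep library stood highest, Sirpa-WT replicates 2 and 3 stood above both shallow Sirpa-KO libraries, and Sirpa-WT replicate 1 stood below them, so the groups overlapped. Mean CPM was 152 ± 39.3 for Sirpa-WT (SD, n = 3), 197 ± 151 in Sirpa-KO (SD, n = 3) and 110 ± 2.4 for its shallow pair (SD, n = 2). Over 6 libraries, the log2 fold change of Mif was 0.21 ± 0.55 (SE, edgeR adjusted p = 0.850), and it was -0.013 when scaled by RLE size factors. Without the deep library it was -0.56 ± 0.22 (adjusted p = 0.101), with an unadjusted p of 0.00996, in a fit where 20.8% of genes tested had an unadjusted p under 0.05. Mif therefore did not pass the threshold of 0.05 in either fit. The value depends on Sirpa-WT replicate 1, without which it was -0.77 (edgeR adjusted p = 0.0154) and passed; with each shallow library left out in turn, its adjusted p ran from 0.0154 to 0.380.

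**Figure D2:**
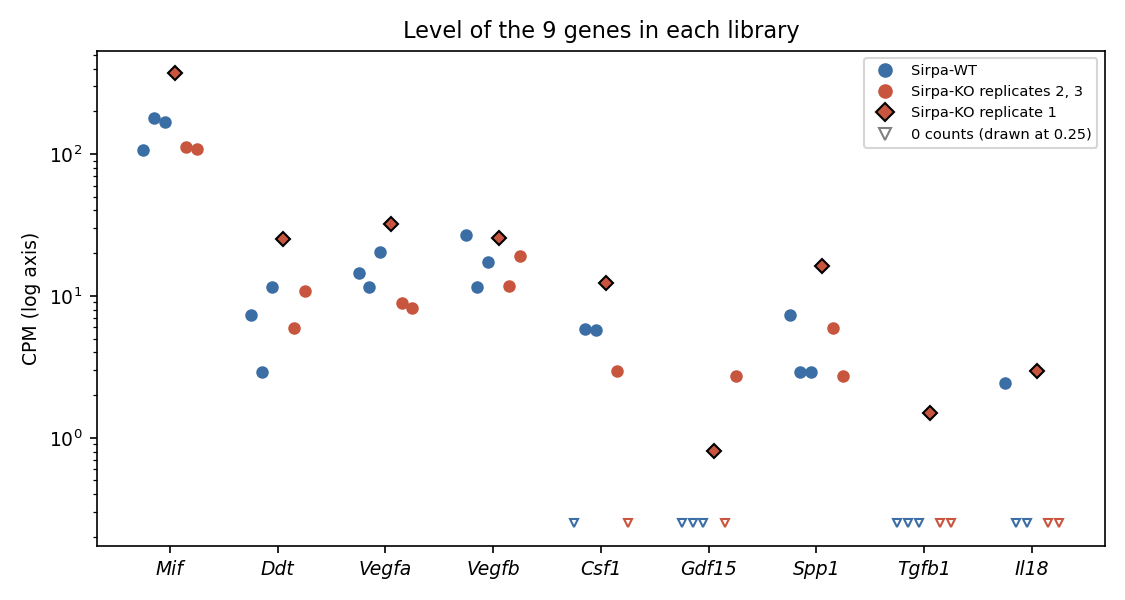
CPM of the 9 genes in each of the 6 libraries, on a log axis. Circles are Sirpa-WT (blue) and Sirpa-KO replicates 2 and 3 (red), diamonds are Sirpa-KO replicate 1, and open triangles mark 0 counts, drawn at a fixed height. Mif lies between 107 and 371 CPM, and each other gene lies below 33 CPM.

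Most counts of the Mif family in the shallow libraries fell on a pseudogene. Mif-ps3 had 161, 225 and 207 counts across Sirpa-WT, against 86 and 115 for the shallow Sirpa-KO pair, against 2 in the deep library. It thus held more counts than Mif in each shallow library and almost none where Mif had 11089. Gm10169 had 40, 61 and 78 counts across Sirpa-WT, 44 and 48 for the shallow Sirpa-KO pair and 31 in the deep one. Gm16379 had 5, 6 and 6 counts across Sirpa-WT, 3 and 1 for the shallow Sirpa-KO pair and 36 in the deep one. Gm5228 (chromosome 17, 47936090 to 47936446, plus strand) had 7, 7 and 5 counts across Sirpa-WT, against 2 and 6 for the pair and 1 in the deep library, and was above Gm16379 in the pooled shallow libraries. Gm6990 had 1 count in 1 library, and Gm11908 had 0 throughout. Gm16302, which overlaps Gm16379 on the opposite strand, had at most 4 counts in any library; the counting used no strand.

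Mif took a small and steady share of the family's counts in Sirpa-WT. The share was 17.1%, 17.1% and 16.4% in replicates 1 to 3, a mean of 16.9% ± 0.43 (SD, n = 3). It was 22.0% (exact 95% binomial interval 16.0% to 28.9%) and 19.0% (14.0% to 25.02%) in Sirpa-KO replicates 2 and 3. Both shallow Sirpa-KO libraries lay above Sirpa-WT, but their intervals hold the Sirpa-WT mean. In the deep library the share was 99.4% (99.2% to 99.5%), with 70 of 11159 family counts on copies. These intervals, as all others below, cover counting error only. The depth of that library and its low share of processed pseudogenes move with this value, and their part in it was not tested.

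**Figure D3:**
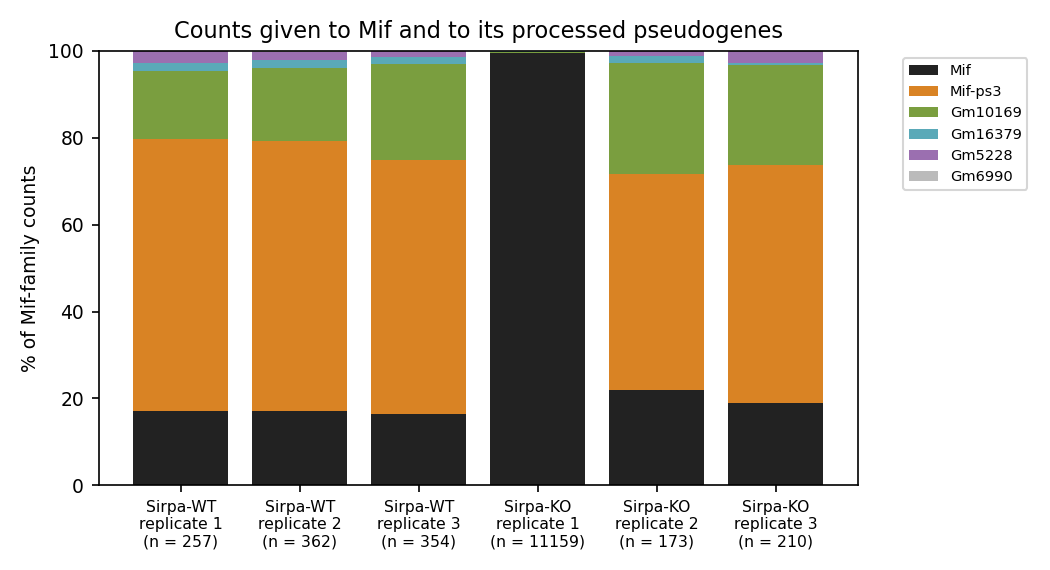
Share of the Mif family's counts given to Mif and to each processed pseudogene, in percent, in the 6 libraries, with the number of family counts under each bar. Mif takes 16.4% to 22.0% in the shallow libraries and 99.4% in Sirpa-KO replicate 1, where Mif-ps3 has 2 counts.

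Mif-ps3 was lower for the shallow pair labelled Sirpa-KO, the 1 copy of Mif that passed the test. Its CPM was 391, 654 and 599 across Sirpa-WT, against 254 and 313 for the pair, without overlap. Over these 5 libraries, 18.8% of genes tested were lower in Sirpa-KO without overlap in TMM-scaled CPM. The log2 fold change of Mif-ps3 was -1.06 ± 0.15 (SE, edgeR adjusted p = 4.48e-10), from a mean of 548 ± 139 CPM (SD, n = 3) to 283 ± 41.7 (SD, n = 2). With DESeq2 on these libraries its adjusted p was 0.00971, the highest of its alternatives there. The pooled ratio of Sirpa-KO to Sirpa-WT was 0.528 (exact 95% interval 0.448 to 0.621). In the same fit edgeR called 322 of 5510 genes, which is 5.84%, and called 4.52% lower and 1.32% higher. Among processed pseudogenes 8.81% of 1101 were called lower and 0.545% higher. Their share of counts, lower for the shallow Sirpa-KO pair than in Sirpa-WT, moves with this result, and its part in the result was not tested.

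Gm10169 did not pass, at -0.45 ± 0.21 (SE, edgeR adjusted p = 0.181) without the deep library. Its mean was 167 ± 64.9 CPM for Sirpa-WT (SD, n = 3) and 130 ± 0.49 for the shallow Sirpa-KO pair (SD, n = 2), and the groups overlapped. Without Sirpa-WT replicate 1, the lowest of that group, it stood at -0.75 (edgeR adjusted p = 0.0105) and passed; with each shallow library left out in turn, its adjusted p ran from 0.0105 to 0.748. Over 6 libraries edgeR called 0% of 5397 genes, with 344 (6.37%) at an unadjusted p under 0.05 and a smallest adjusted p of 0.574. There Mif-ps3 stood at -1.67 ± 1.94 (SE, adjusted p = 0.722) and Gm10169 at -1.09 ± 1.44 (adjusted p = 0.752). DESeq2 called neither of them over 6 libraries, and limma voom called both lower. In that voom fit 1283 of 5397 genes were called, 1266 lower and 17 higher.

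The sum of Mif and its 6 copies does not depend on how the counted fragments were divided among these rows. Fragments that align to several places may be missing from it, as the counting command had no option to keep them. Fragments of annotated copies that are not in the files are not part of it either. The sum was 624, 1053 and 1024 CPM in Sirpa-WT and 511 and 571 CPM for the shallow Sirpa-KO pair, so these groups did not overlap. Groups did not overlap, with Sirpa-KO lower, for 18.8% of genes tested over these 5 libraries. Over all 6 the sum was also without overlap, as 16% of genes tested were with Sirpa-KO lower and 14.5% with Sirpa-KO higher. In the deep library the sum was 373 CPM, the lowest of the 6, while Mif alone was highest there. The pooled ratio of shallow Sirpa-KO to Sirpa-WT was 0.613 (exact 95% interval 0.544 to 0.691). Fitted as 1 row without the deep library, an addition made after the data were seen, the sum stood at -0.84 ± 0.12 on the log2 scale (SE, edgeR adjusted p = 4.09e-09). It was -1.04 ± 0.41 (adjusted p = 0.573) over 6 libraries, and DESeq2 did not call it over 5 (adjusted p = 0.0530, the highest of its alternatives there). Mif-ps3, itself called lower, held 794 of the 1356 counts of the sum in the shallow libraries, so the 2 results are not independent. With the rows kept apart, edgeR called 4.52% of genes tested lower over these 5 libraries.

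Ddt (ENSMUSG00000001666), the only other member of the MIF family here, lies 85.9 kb from Mif on chromosome 10, at 75771230 to 75773414 on the minus strand. It had 3, 1 and 4 counts across Sirpa-WT, against 749, 2 and 4 across Sirpa-KO. Its shallow values of 2.91 to 11.6 CPM overlapped between groups, and the deep library stood above them at 25.1 CPM. The pooled ratio of shallow Sirpa-KO to Sirpa-WT was 1.17 (exact 95% interval 0.334 to 3.84), which spans falls and rises of more than 2-fold. Ddt shares 232 identical bases with Gm20441, an overlapping gene that was at 0 in each library, so its counts are uncertain where fragments belong to both.

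The 2 vascular factors were detected in each library. Vegfa (chromosome 17, 46016993 to 46032377), the main hypoxia-induced growth factor of blood vessels, had 6, 4 and 7 counts across Sirpa-WT, against 964, 3 and 3 across Sirpa-KO. In CPM it was 14.6, 11.6 and 20.3 against 8.85 and 8.16 for the shallow Sirpa-KO pair, without overlap, and 32.3 in the deep library, above each of them. Groups did not overlap in TMM-scaled CPM over these 5 libraries for 18.8% of genes tested with Sirpa-KO lower and 18.1% with Sirpa-KO higher. Its ratio over the shallow libraries was 0.550 (exact 95% interval 0.178 to 1.46), so the difference was not beyond counting error. Vegfb (chromosome 19, 6982473 to 6987651), a relative that binds VEGFR-1, had 11, 4 and 6 counts across Sirpa-WT, against 760, 4 and 7 across Sirpa-KO. Its groups overlapped, at 18.6 ± 7.6 CPM (SD, n = 3) and 15.4 ± 5.1 for the shallow Sirpa-KO pair (SD, n = 2), and the ratio was 0.816 (0.355 to 1.77).

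Of the factors that act on macrophages, Spp1 was found in each library and Csf1 in 4. Spp1 (chromosome 5, 104435118 to 104441050), which encodes the integrin ligand osteopontin, had 3, 1 and 1 counts across Sirpa-WT, against 485, 2 and 1 across Sirpa-KO. Its shallow libraries lay between 2.72 and 7.29 CPM in both groups together, and stood at 16.2 CPM in the deep one. The shallow ratio was 0.935 (exact 95% interval 0.145 to 4.81), and it was 1.46 without Sirpa-WT replicate 1 and 0.599 without Sirpa-KO replicate 2. Csf1 (chromosome 3, 107741048 to 107760469), the growth factor of the macrophage lineage, had 0, 2 and 2 counts across Sirpa-WT, against 371, 1 and 0 across Sirpa-KO. Each group thus held a library at 0, and the ratio of 0.390 (0.00791 to 3.94) leaves a rise or a fall possible. That ratio was 0.244 with Sirpa-WT replicate 1 left out, and 0 or 0.812 with Sirpa-KO replicate 2 or 3 left out. At these depths no difference in Spp1 or Csf1 was detectable.

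Gdf15, Tgfb1 and Il18 were at the limit of detection in the shallow libraries. Gdf15 (chromosome 8, 70629393 to 70632456) had 24 counts in the deep library, 1 in Sirpa-KO replicate 3 and 0 elsewhere. Tgfb1 (chromosome 7, 25687002 to 25705077) had 45 counts in the deep library and 0 in each shallow one, which allows up to 1.66 CPM over the pooled shallow libraries (3 counts), while the exact 95% interval reaches 2.04 CPM. Il18 (chromosome 9, 50575273 to 50581837) had 89 counts in the deep library, 1 in Sirpa-WT replicate 1 and 0 elsewhere. No fold between Sirpa-WT and the shallow Sirpa-KO libraries is given for these genes. Of the 9 genes, only Mif passed the count filter of 10 counts, about 28.9 CPM in the shallow libraries. Fitted without the filter, 0 of the other 8 passed edgeR's test over 6 libraries (smallest adjusted p = 0.938, smallest unadjusted p = 0.253). Without the deep library it was 0 of the 7 that could be fitted (smallest adjusted p = 0.765, smallest unadjusted p = 0.147).

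To order the 9 genes, levels were divided by the gene length in the files, in CPM per kilobase. In the deep library the order was Mif (670), Ddt (32.4), Vegfb (15.8), Spp1 (9.85), Vegfa (7.52), Il18 (4.17), Csf1 (2.36), Tgfb1 (0.589) and Gdf15 (0.434). Only the counting intervals of Tgfb1 and Gdf15 overlapped among neighbours, but this is 1 library. In the shallow libraries pooled, Mif stood at 242 CPM per kilobase, Vegfb at 11.0, Ddt at 10.02 and Vegfa at 2.96. There Vegfb and Ddt could not be ordered, and below Ddt the intervals of each pair of neighbours overlapped. Mif ranked 59 of 21226 protein-coding genes in the deep library and 157 in the pooled shallow ones, although its shared sequence makes both ranks uncertain.

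**Figure D4:**
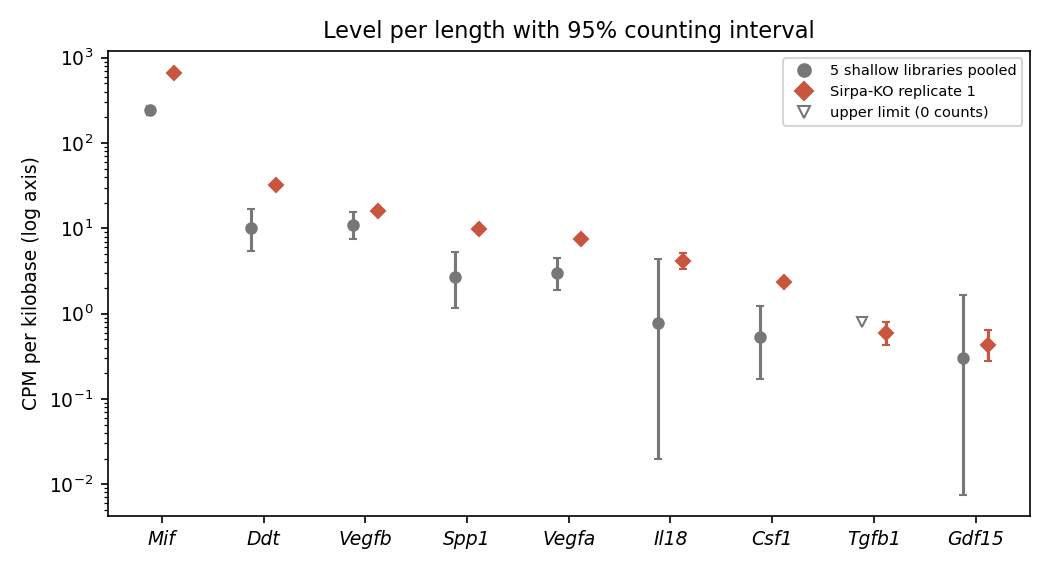
Level of each of the 9 genes in CPM per kilobase, on a log axis, in the 5 shallow libraries pooled (grey circles) and in Sirpa-KO replicate 1 (red diamonds), with exact 95% counting intervals. Mif leads at 242 and 670 CPM per kilobase, and the open triangle is the upper limit of a gene with 0 counts.

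Each of the 9 genes had a higher CPM in the deep library than in the shallow ones pooled. The ratio was 2.77 (exact 95% interval 2.44 to 3.16) for Mif, 3.24 (1.92 to 5.95) for Ddt and 2.54 (1.68 to 4.02) for Vegfa. It was 1.44 (1.01 to 2.12) for Vegfb, 3.67 (1.85 to 8.54) for Spp1 and 4.49 (1.91 to 13.9) for Csf1. These 6 intervals lie above 1, while those of Gdf15, Tgfb1 and Il18 do not. Of 14989 protein-coding genes with a count, 80.7% were higher in the deep library and 52.6% had an interval above 1. Among the 9603 with at least 5 pooled shallow counts, which include these 6 genes, 73.0% had such an interval and 79.5% were higher, so most genes shared the direction. Against the shallow Sirpa-KO pair alone, libraries of the same labelled genotype, the ratio was 3.36 (exact 95% interval 2.69 to 4.26) for Mif, 2.95 (1.35 to 8.07) for Ddt and 3.799 (1.74 to 10.4) for Vegfa. It was 1.63 (0.908 to 3.29) for Vegfb, whose interval holds 1. The share of counts on protein-coding genes as a whole was 1.42 times higher in the deep library, close to the ratio of Vegfb.

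Receptors and regulators of these factors were read from 8 lists with 96 genes, of which 22 passed the count filter. Over 6 libraries 0 of the 22 were called, by edgeR's test that called 0% of all genes. Without the deep library 1 rose and 0 fell, which is 4.55% of those tested, beside 4.89% of protein-coding genes called in either direction, 1.56% higher and 3.33% lower. The median log2 fold change of the 22 was -0.10, beside 0.013 over all 5510 genes.

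The gene that rose was Itga4, which encodes the α4 integrin subunit, a receptor chain for osteopontin and VCAM-1. It had 20, 10 and 11 counts across Sirpa-WT, against 31 and 28 for the shallow Sirpa-KO pair, or 36.5 ± 10.6 CPM (SD, n = 3) and 83.8 ± 10.8 (SD, n = 2). These groups did not overlap, and 18.1% of genes tested were higher in Sirpa-KO without overlap in TMM-scaled CPM over these 5 libraries. The deep library stood higher still, at 257 CPM. Of protein-coding genes with at least 5 pooled shallow counts, 79.5% were higher in that library than in the pooled shallow ones. The log2 fold change was 1.04 ± 0.30 (SE, edgeR adjusted p = 0.0153) without that library and 1.79 ± 0.56 (adjusted p = 0.574) with it. The call was lost with DESeq2, with no count filter and without any of Sirpa-WT replicates 2 and 3 and Sirpa-KO replicates 2 and 3. Among the other osteopontin receptors tested, the common β1 subunit Itgb1 was the most abundant of the list and stood at 0.11 (adjusted p = 0.715), with Itgav and Itgb5 below 0 (-0.24 and -0.43). With all 6 libraries Itgb1 was at 0.68, Itgav at -0.56 and Itgb5 at -0.74, and none of the 3 passed.

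**Figure D5:**
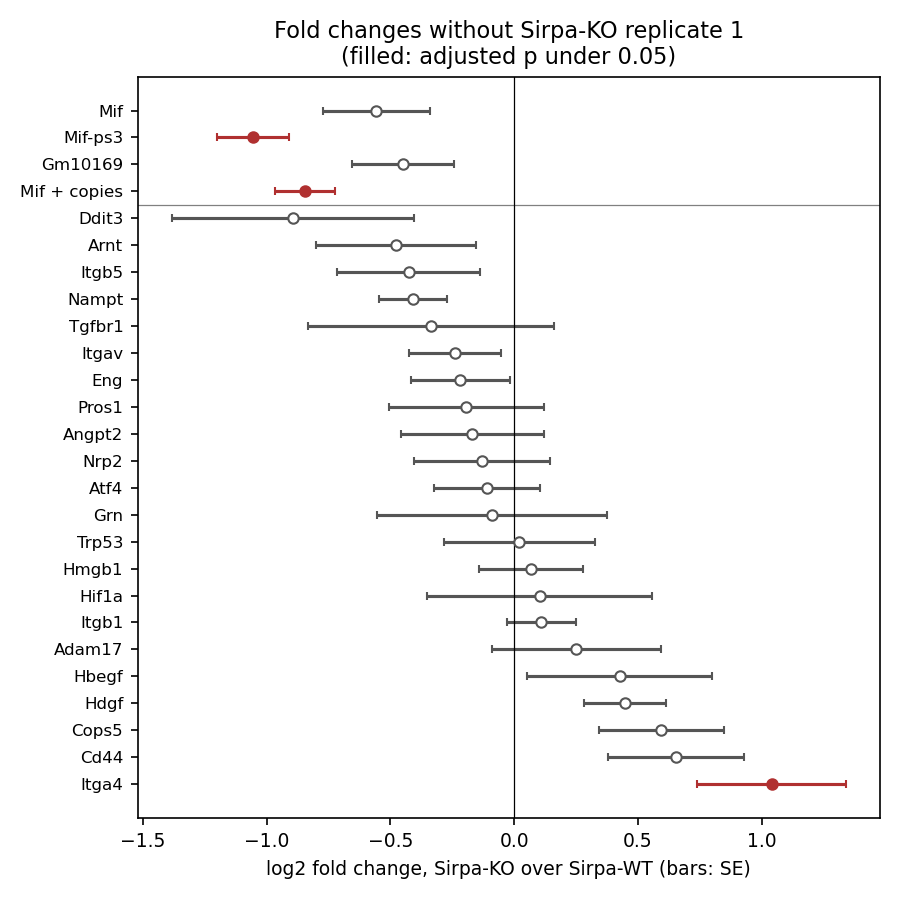
Log2 fold change of Sirpa-KO over Sirpa-WT without Sirpa-KO replicate 1, for Mif, its 2 tested copies, their sum and the 22 tested pathway genes; bars are SE and filled points have an adjusted p under 0.05. Mif-ps3 (-1.06), the sum (-0.84) and Itga4 (1.04) are filled, and Mif (-0.56) is open.

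The receptor side of MIF signalling was divided. Cd74, the MIF receptor, had 4 counts in the deep library, 1 in Sirpa-KO replicate 3 and 0 elsewhere, and Cxcr4 had 1 count in all. Ackr3, in the same list of MIF receptors and partners, had 140 counts in the deep library (4.69 CPM) and 0 in each shallow one. Cxcr2 had 2, 1 and 1 counts across Sirpa-WT, against 1 and 1 for the shallow Sirpa-KO pair and 0 in the deep library. The co-receptor Cd44 was present, at 19, 24 and 16 counts across Sirpa-WT, against 31 and 34 for the shallow Sirpa-KO pair. Its groups did not overlap over these 5 libraries, where 18.1% of genes tested were higher without overlap, but it did not pass the test (0.66, edgeR adjusted p = 0.138). The deep library stood higher, at 291 CPM, and the 6-library value was 1.39 (adjusted p = 0.574). Cops5, a COP9 signalosome subunit that binds MIF inside cells, was the most abundant of this list by length. It stood at 67.3 ± 11.4 CPM for Sirpa-WT (SD, n = 3) and 112 ± 3.6 for the shallow Sirpa-KO pair (SD, n = 2) and did not pass either (0.59, edgeR adjusted p = 0.146), with 277 CPM in the deep library and 1.14 (adjusted p = 0.574) over 6 libraries.

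VEGF receptors of blood vessels were near 0. Kdr had 0 counts in each library, and Flt1 and Flt4 had 5 and 18 in the deep library and 0 elsewhere. The co-receptor Nrp2 led its list, at 72.2 ± 7.1 CPM for Sirpa-WT (SD, n = 3) and 71.8 ± 13.9 for the shallow Sirpa-KO pair (SD, n = 2), with a log2 fold change of -0.13. The deep library held 272 CPM of Nrp2, and over 6 libraries the value had the opposite sign, 0.77 (edgeR adjusted p = 0.592). Of the hypoxia regulators of Vegfa, Hif1a, the oxygen-sensitive subunit of HIF-1, was the most abundant by length in the mean of 6 libraries, at 9.13 CPM per kilobase, through the deep library; in the shallow libraries pooled, Arnt (6.43) and Vhl (4.98) exceeded it (4.60). Hif1a stood at a log2 fold change of 0.10 without the deep library and 1.54 (edgeR adjusted p = 0.574) with it, and 0 of 2 tested genes of the list passed in either fit. Atf4, a stress-response factor known to induce Gdf15, led the list of CSF1 and GDF15 partners. Its log2 fold change was -0.11 without the deep library and 0.45 (edgeR adjusted p = 0.665) with it, where it had 332 CPM, and 0 of 4 tested passed in either fit. In that list Csf1r, the CSF-1 receptor, had 1 count in the deep library and 0 elsewhere, and Gfral, the GDF15 receptor, had 0 throughout.

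In the list of TGF-β activation and signalling, 0 of 2 tested genes passed. Eng, the co-receptor endoglin, was its most abundant member, with 81, 40 and 58 counts across Sirpa-WT, against 45 and 62 for the shallow Sirpa-KO pair, and stood at -0.22, or -0.35 over 6 libraries, with 118 CPM in the deep one. Tgfb3, under the filter, had 6, 1 and 4 counts across Sirpa-WT (2.91 to 14.6 CPM) and 0 in both libraries of the shallow Sirpa-KO pair. It had 448 in the deep library, or 15.0 CPM, above each Sirpa-WT library. Over the 5 shallow libraries 18.8% of genes tested were lower in Sirpa-KO without overlap in TMM-scaled CPM. Fitted there without the count filter, Tgfb3 did not pass edgeR's test (adjusted p = 0.108). In the list of IL-18 processing and signalling, 0 of 12 genes passed the count filter, and 6 were at 0 in each shallow library. Pycard, the inflammasome adaptor ASC, led it with 3, 4 and 3 counts across Sirpa-WT, against 0 and 2 for the shallow Sirpa-KO pair and 205 in the deep library (6.86 CPM). Without the count filter, Pycard did not pass edgeR's test over the 5 shallow libraries either (adjusted p = 0.681).

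Markers of other cells were low. Of 10 leukocyte and macrophage markers, 7 were at 0 in each shallow library, Ptprc (CD45) and Csf1r among them, and their summed CPM was 9.72 to 26.2 in Sirpa-WT, 14.8 to 32.6 for the shallow Sirpa-KO pair and 6.26 in the deep one. Summed endothelial markers reached at most 5.44 CPM and fibroblast markers 13.6 CPM in any library. In such bulk samples, fewer cells of a type and less RNA per cell cannot be told apart.

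The protein-coding genes whose pattern across libraries was most like that of Mif were found by the root mean square difference of centred log2 CPM. Over 6 libraries these were Trpc4ap (0.113), Trdmt1 (0.135) and Hexim1 (0.136), beside a median of 0.623 over 4274 genes. Over the 5 shallow libraries they were Blmh (0.0581), Rplp1 (0.0801) and Nedd8 (0.0861), beside a median of 0.443 over 4293 genes. The 2 sets share no gene.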

How the data were processed

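The titles of the 6 libraries gave their groups and replicate numbers. The authors made the deposited raw counts, unnormalized fragments per gene, by running featureCounts 1.5.1 on the exons in an Ensembl release 75 GTF, per the file headers. The command carried no strand option, although the kit was stranded. The submitters' processing notes name GRCm38, STAR 2.6.0 and Subread. Symbols came from GENCODE mouse release 21 for 37607 of 39179 identifiers. Copies of Mif were found with BLAST 2.17.0 (at least 100 aligned bases); further annotated copies were not analysed here.

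Genes passing filterByExpr (minimum count 10) were scaled by TMM and tested with edgeR 4.0.16 in R 4.3.3 (robust quasi-likelihood, 2-sided). P-values were adjusted by Benjamini and Hochberg's method across every tested gene, with a threshold of 0.05. The same fit was made without Sirpa-KO replicate 1. Alternatives were RLE scaling, library size alone, no filter, DESeq2 1.42.0, voom in limma 3.58.1, robust=FALSE, a replicate block, and each library left out in turn. Genes under the filter are given as pooled CPM ratios with exact 95% intervals, which with the floor of 3 counts (7.29 to 8.85 CPM in a shallow library, 0.1 in the deep one) cover counting error only. Libraries of a group were compared by chi-square per degree of freedom, which is near 1 under counting noise alone. It was 1.15 to 1.45 within Sirpa-WT and 1.15 for the shallow Sirpa-KO pair, so these libraries differed by little more than counting noise. Against the deep library, the 2 libraries of that pair stood at 499 and 500. The members and gene lists were chosen with earlier results of these data known. Named were Sirpa, the 9 genes, the 3 most abundant Mif copies by mean CPM (Mif-ps3, Gm10169, Gm5228), the called and the most abundant gene of each list, and the 3 genes most like Mif; Gm16379, shown for its sequence, and other list genes were chosen after their values were seen.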

Additional observations from a re-analysis of the deposited data

How the results depend on the processing

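Depth limits the test to genes above about 28.9 CPM, so 8 of the 9 factors have only counting ratios, and their fitted fold changes are not reported. Over 6 libraries, the count of Mif and its copies called was 0, but 2 with limma voom, and 0 to 1 when leaving out each library; that of pathway genes was 0, but 1 with limma voom (Itgb5) and 0 to 1. All-gene calls rose from 0 to 1 with DESeq2 and 1283 with limma voom. Mif's log2 fold change of 0.21 over 6 libraries became -0.013 with RLE scaling, -0.075 with no filter, -0.022 with the replicate block and lay between -0.56 and 0.40 when each library was left out, with -0.091 without Sirpa-WT replicate 1. Sirpa's 0.17 then lay between -0.38 and 0.57. Over the 5 shallow libraries, the count of Mif and its copies called rose from 1 (Mif-ps3) to 3 with the replicate block (Mif-ps3, Gm10169 and Mif) and was 1 to 3 with each library left out; Mif stood at -0.77 (edgeR adjusted p = 0.0188) with the block. Pathway calls went from 1 to 2 with RLE scaling (Itga4, Nampt), 2 with library size alone (Itga4, Hdgf), 2 with the replicate block (Itga4, Nampt), 0 with no filter, 0 with DESeq2 and 0 to 2 with each library left out. Sirpa's -0.38 became 0.085 with the block and lay between -0.71 and 0.064 when each library was left out. Replicate numbers did not pair the libraries (correlations of -0.035 to 0.057). The 322 genes called (73 higher, 249 lower) became 132 with DESeq2, 125 and 127 without Sirpa-KO replicates 2 and 3, and 214 without Sirpa-WT replicate 2. With library size alone, the median of all genes moved from 0.013 to 0.15 (log2), with 279 higher and 128 lower. Mif-ps3 was called lower under each of these 5-library settings, and Mif stayed below 0 in them. The cause of these changes was not tested.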

Other observations

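Among 29 other secreted factors listed for tumour cells, 7 passed the count filter and 0 were called by edgeR's test in either fit. Hdgf, hepatoma-derived growth factor, was the most abundant by length in the mean of 6 libraries, though Nampt exceeded it in the shallow ones pooled (102 against 89.5 CPM per kilobase). Hdgf had 78, 67 and 93 counts across Sirpa-WT, against 114 and 113 for the shallow Sirpa-KO pair, a log2 fold change of 0.45 (edgeR adjusted p = 0.0807) without the deep library and 0.60 (adjusted p = 0.574) with it. Nampt, an enzyme of NAD synthesis that is also released as a cytokine, had 205, 150 and 195 counts against 154 and 134, at -0.41 ± 0.14 (SE, edgeR adjusted p = 0.0505), and -0.71 ± 0.43 (adjusted p = 0.574) over 6 libraries. Lif, Pdgfa and Kitl had at most 6 counts in any shallow library. Pdgfa reached at most 5.82 CPM and Kitl 2.95 there, against 17.7 and 10.6 in the deep library, while Lif had 17.7 CPM in Sirpa-KO replicate 2 and 11.6 in the deep library. A further 16 of the 29, Hgf, Igf1, Il6, Il10 and Areg among them, were at 0 in each shallow library, and 10 of the 29 were at 0 in the deep library.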
